A study of Mus musculus and Rattus norvegicus with 18 samples.

Results

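Amino acids enter and leave cells through carriers in the plasma membrane, and 10 mouse and rat genes for such carriers were followed through hearts and cells that had lost Mettl1: Slc7a5, Slc3a2, Slc7a6, Slc7a1, Slc7a2, Slc38a1, Slc38a2, Slc1a4, Slc1a5 and Slc6a6. They were chosen by symbol, with earlier results of these data known. All 10 were found in the heart RNA table (55487 gene IDs), in the heart footprint table (17866 genes) and in the H9C2 table (32883 IDs). Mettl1 encodes the catalytic subunit of the methyltransferase that places N7-methylguanosine on a set of tRNAs, and the series title links its loss to ketogenesis and to the maturation of heart muscle cells. Hearts of C57BL/6 mice aged 4 weeks carried a conditional Mettl1 knockout (cKO) or were controls (Ctrl), and each genotype gave 2 RNA-seq and 2 Ribo-seq libraries. Ribo-seq sequences the stretches of mRNA that ribosomes cover, called footprints. H9C2, a myoblast line from embryonic Sprague-Dawley rat heart kept in high-glucose medium with serum, was measured by RNA-seq in 3 Mettl1-null samples, all from 1 line with a CRISPR frameshift, and 3 WT samples. The labels do not say which promoter drives the deletion, what alleles the Ctrl mice carry, or whether replicates are separate animals or cultures, so the spread on which the p-values rest may be technical only.

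Slc7a5 and Slc3a2 encode the light and the heavy chain of 1 exchanger, which brings leucine and other large neutral amino acids in and lets glutamine out. Slc7a6 encodes another light chain, which pairs with the same heavy chain and exchanges cationic for neutral amino acids. Slc7a1 and Slc7a2 take up arginine and lysine. Slc38a1 and Slc38a2 carry glutamine, alanine and other small neutral amino acids in with sodium, Slc1a4 and Slc1a5 exchange small neutral amino acids, glutamine among them in the case of Slc1a5, and Slc6a6 carries taurine, which heart muscle holds in large amounts. When amino acids are scarce, the transcription factor Atf4 is known to raise Slc7a5, Slc3a2, Slc38a2 and Slc7a1, and leucine that enters through Slc7a5 is one input to the growth kinase complex mTORC1. The mRNAs of such carriers can hold short reading frames ahead of the main one, on which ribosomes also leave footprints.

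Each heart RNA library held between 15.05 and 16.84 M counts, each footprint library between 25.17 and 39.68 M and each H9C2 library between 90.32 and 94.20 M. Mettl1 itself stood at 2.49 and 2.52 CPM (counts per M counts of the library, scaled with TMM factors) in cKO and 4.31 and 3.76 CPM in Ctrl heart RNA (adjusted p = 0.0664), at 2.22 and 2.22 against 6.28 and 6.62 CPM in footprints (adjusted p = 1.0e-04), and at 4.25 ± 0.488 CPM in null against 16.2 ± 0.503 CPM in WT H9C2 cells (SD, n = 3 each; adjusted p = 1.1e-05). Cardiomyocyte markers were present in every heart library. Their summed RNA level, over 8 genes, was 40150 to 40440 CPM in cKO and 44160 to 44260 CPM in Ctrl, with 4 of the 8 called lower, and their footprints summed to 89500 to 89690 CPM in cKO and 103600 to 114100 CPM in Ctrl, with 5 of the 8 called lower. Of the 8 endothelial markers 2 were called lower (1579 to 1598 CPM in cKO, 1729 to 1808 CPM in Ctrl), and of the 5 erythroid markers 3 were called higher (1565 to 2435 CPM in cKO, 1425 to 1562 CPM in Ctrl). Endothelial footprints summed to 721 to 858 CPM in cKO and 943 to 970 CPM in Ctrl (1 called lower). Of the 7 markers of pericytes and smooth muscle, Acta2 was called lower in both assays, and their sum was 1291 to 1294 CPM in cKO and 1470 to 1482 CPM in Ctrl RNA, and 1159 to 1277 against 1471 to 1556 CPM in footprints. Des, a muscle filament gene on the myoblast list, was called higher in both. None of the 7 fibroblast or 7 macrophage markers was called, and of all heart markers Th of neurons and Myog of myoblasts were at 0. In H9C2 the cardiomyocyte markers summed to 12.9 to 14.7 CPM in null and 25.6 to 27.9 CPM in WT cells, with Ryr2 at 0. Of the 5 that passed the count filter there, Tnnt2 was called lower (7.80 CPM in null, 23.2 CPM in WT) and Pln higher (5.27 CPM in null, 2.91 CPM in WT). In these bulk samples, fewer cells of a type and less RNA per cell cannot be told apart, and the part of these shifts in the transporter results was not tested.

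Stretches of promoter are shown for 3 of the genes: Slc7a1, which was lower in cKO heart; Slc38a2, which held the highest footprint density; and Slc1a4, the sole one of the 5 members with a promoter entry whose window holds the motif that Atf4 dimers are known to bind. The start site used for Slc7a1 is the one at the 5′ end of the gene. Each stretch runs from 100 bases before to 20 bases after a start site in the RefSeq annotation of GRCm38.p6, read on the strand of the gene, here the minus strand for all 3. The search covered TGATGNAA on both strands in windows of 300 bases (250 before and 50 after the start). Capitals mark the match.
Slc7a1: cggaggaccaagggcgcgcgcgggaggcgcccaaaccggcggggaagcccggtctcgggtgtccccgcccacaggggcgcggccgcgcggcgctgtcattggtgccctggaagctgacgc
Slc38a2: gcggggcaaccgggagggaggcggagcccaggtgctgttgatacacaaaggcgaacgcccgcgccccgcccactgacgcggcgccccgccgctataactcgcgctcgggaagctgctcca
Slc1a4: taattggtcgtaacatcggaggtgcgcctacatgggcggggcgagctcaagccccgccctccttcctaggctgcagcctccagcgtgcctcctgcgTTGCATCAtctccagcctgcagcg
They lie at chr5:148399885-148400004, chr15:96699709-96699828 and chr11:20332694-20332813. The match in Slc1a4, TTGCATCA, is the motif read on the opposite strand, and its first base lies 4 bases before the start site, so it spans that site. The motif occurs in 3.97% of 32851 windows of the same length. The windows of Slc3a2, Slc7a6, Slc7a1 and Slc38a2 held no match, and the E-box CACGTG, present in 7.15% of windows, was in none of the 5. The window of Slc3a2, at chr19:8713848-8714147, lies inside the gene. On the minus strand the gene reaches to 8723369 and its main frame starts at 8723095, so the promoter at its 5′ end was not searched. A match describes these letters and not a bound site. Slc7a5, Slc7a2, Slc38a1, Slc1a5 and Slc6a6 have no entry.

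In cKO hearts the RNA of the leucine exchanger light chain Slc7a5 rose 2.29-fold, that of the glutamine carrier Slc38a1 rose and that of the arginine carrier Slc7a1 fell, and ribosome footprints moved the same way on all 3. Of the 10 members, 3 were called higher and 1 lower in heart RNA, at an adjusted p under 0.05 (quasi-likelihood F test in edgeR, adjusted over every gene tested). Over all 14088 genes tested, 14.4% were called (8.16% higher and 6.26% lower). In footprints 3 members were again called higher and 1 lower, beside 16.4% of 13514 genes (9.11% higher and 7.33% lower). In each assay 7 of the 10 members had cKO and Ctrl libraries that did not overlap, 5 higher and 2 lower, beside 55.0% of all genes in RNA (27.8% higher and 27.2% lower) and 55.9% in footprints (28.7% and 27.1%). The median log2 fold change of the 10 members was 0.11 in RNA and 0.12 in footprints, and that of all genes 0 and 0. Scaling by library totals alone gave 1769 genes called higher and 506 lower in RNA, where TMM factors gave 1150 and 882, and 1639 and 657 in footprints, where they gave 1231 and 990.

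**Figure D1:**
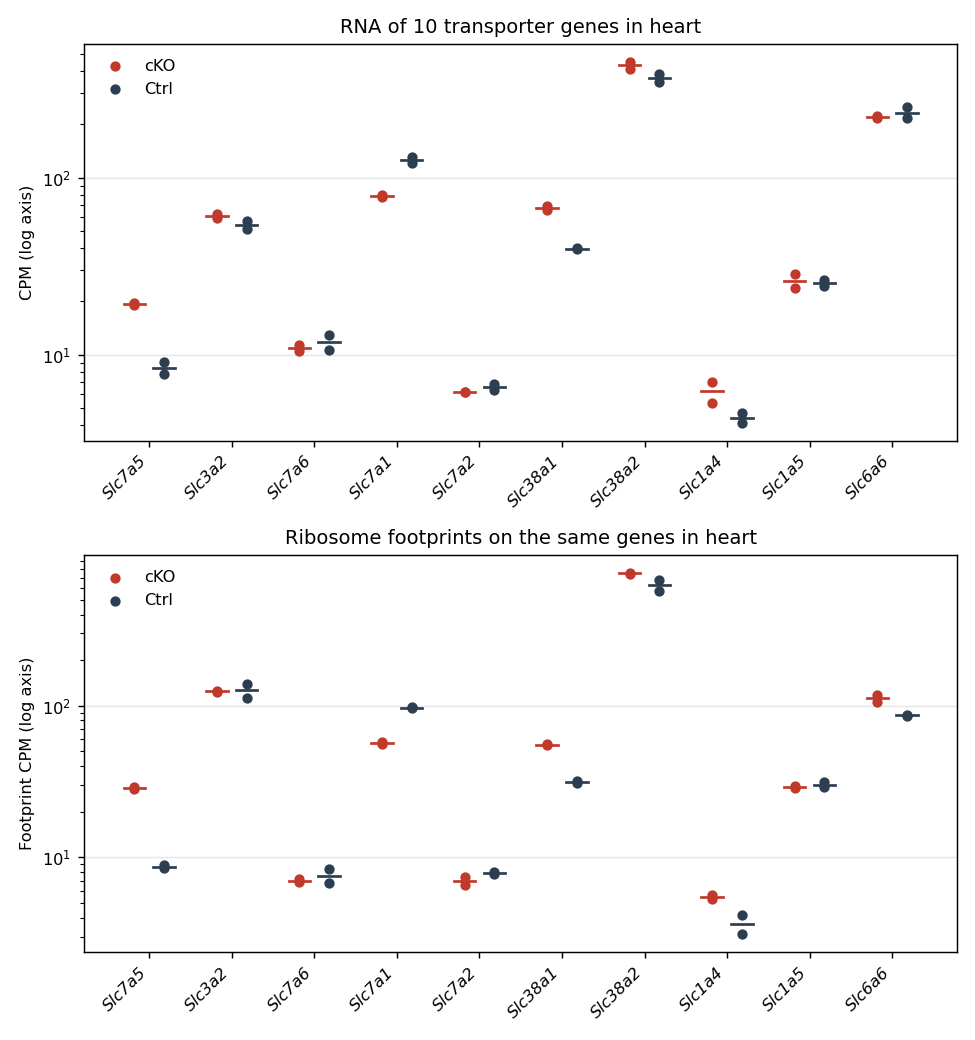
Level of each of the 10 transporter genes in cKO (red) and Ctrl (dark) heart, in CPM on a log axis, for RNA (upper panel) and footprints (lower panel). Points are libraries and bars are means of 2; Slc7a5 and Slc38a1 lie higher in cKO and Slc7a1 lower in both panels, with no overlap.

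Slc7a5 (chromosome 8, 121881146 to 121907686, GRCm38.p6) stood at 19.1 and 19.7 CPM of RNA in cKO libraries and at 9.14 and 7.77 CPM in Ctrl libraries. Its log2 fold change was 1.20 (SE 0.13, adjusted p = 1.4e-05). Its footprints stood at 29.3 and 28.1 CPM in cKO against 8.48 and 8.84 CPM in Ctrl (1.73, SE 0.12, adjusted p = 1.1e-07). The genotypes were far apart in both assays, and the replicates were close. The heavy chain that Slc7a5 needs to reach the cell surface was not called in either assay. Slc3a2 (chromosome 19, 8706882 to 8723369) had 62.4 and 59.1 CPM of RNA in cKO and 56.6 and 51.1 CPM in Ctrl (log2 fold change 0.18, 95% interval 0.01 to 0.34, adjusted p = 0.149). Its footprints were 124.0 and 125.5 CPM in cKO and 139.8 and 112.8 CPM in Ctrl (−0.02, interval −0.22 to 0.19, adjusted p = 0.939). Slc3a2 RNA passed the threshold with library totals (adjusted p = 0.0335). The other light chain, Slc7a6, overlapped between the genotypes in both assays: 10.5 and 11.3 CPM of RNA in cKO against 12.9 and 10.6 CPM in Ctrl (−0.12, interval −0.41 to 0.18), and 6.84 and 7.16 CPM of footprints against 6.74 and 8.41 CPM (−0.12, interval −0.47 to 0.23).

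Slc7a1, the main arginine carrier of most tissues, was the sole member called lower in heart. It lies on chromosome 5 from 148327410 to 148399904. Its RNA was at 79.3 and 77.4 CPM in cKO and at 130.4 and 121.5 CPM in Ctrl (−0.69, SE 0.07, adjusted p = 5.4e-06). Its footprints were at 55.8 and 57.6 CPM in cKO and at 98.1 and 96.0 CPM in Ctrl (−0.78, SE 0.08, adjusted p = 1.4e-05). Every cKO library thus lay under every Ctrl library, by a similar step in both assays. Its relative Slc7a2, at a much lower count, was not called. Slc7a2 RNA had 6.13 and 6.21 CPM in cKO and 6.37 and 6.88 CPM in Ctrl (−0.10, interval −0.46 to 0.25), and its footprints had 7.47 and 6.52 CPM against 7.73 and 7.98 CPM (−0.17, interval −0.50 to 0.17), with no overlap between the genotypes in either assay and no call.

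Of the sodium-coupled glutamine carriers, Slc38a1 (chromosome 15, 96571418 to 96643438) was called in both assays. Its RNA had 69.5 and 65.8 CPM in cKO and 40.2 and 39.3 CPM in Ctrl (0.77, SE 0.07, adjusted p = 5.7e-06), and its footprints had 55.6 and 54.8 CPM against 32.0 and 30.9 CPM (0.81, SE 0.09, adjusted p = 2.0e-05). The step was about the same size in RNA and in footprints. Its neighbour on the chromosome, Slc38a2 (96687392 to 96699728), had 411 and 448 CPM of RNA in cKO and 382 and 347 CPM in Ctrl, a smaller difference (0.24, SE 0.06, adjusted p = 0.0175). That call was lost with DESeq2 (adjusted p = 0.0525), without the cKO 2 library (0.139) and without the Ctrl 2 library (0.155). Slc38a2 footprints had 746 and 749 CPM in cKO and 681 and 576 CPM in Ctrl (0.25, SE 0.09, adjusted p = 0.0584), and without the Ctrl 1 library they passed (0.38, adjusted p = 0.00753).

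The neutral amino acid exchangers were not called in heart. Slc1a4, the gene with the motif shown above, had 7.06 and 5.37 CPM of RNA in cKO and 4.70 and 4.14 CPM in Ctrl (0.50, interval 0.07 to 0.92, adjusted p = 0.116). Its footprints had 5.34 and 5.66 CPM against 3.12 and 4.16 CPM (0.58, interval 0.14 to 1.02, adjusted p = 0.0684). Both cKO libraries lay above both Ctrl libraries in each assay, on 65 to 214 counts a library, and without the Ctrl 2 library the footprints passed (0.82, adjusted p = 0.041). Slc1a5 (chromosome 7, 16781334 to 16798274) overlapped between genotypes in both assays, with 28.5 and 23.8 CPM of RNA in cKO against 26.5 and 24.4 CPM in Ctrl (0.04, interval −0.18 to 0.27) and 29.5 and 28.5 CPM of footprints against 31.2 and 29.0 CPM (−0.05, interval −0.26 to 0.16).

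The taurine carrier Slc6a6 (chromosome 6, 91684048 to 91759063) was called in footprints and not in RNA. Its RNA overlapped between genotypes, at 221.7 and 215.9 CPM in cKO and 215.9 and 249.3 CPM in Ctrl (−0.09, interval −0.23 to 0.06, adjusted p = 0.447). Its footprints did not, at 118.5 and 106.6 CPM in cKO and 87.1 and 85.7 CPM in Ctrl (0.38, SE 0.09, adjusted p = 0.00626). The footprint call was lost without the cKO 1 library (0.29, adjusted p = 0.17).

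Translational efficiency, the ratio of footprints to RNA, was compared between cKO and Ctrl hearts in 1 model over all 8 heart libraries. No member was called, and over all 12662 genes 0.126% were (0.0711% higher and 0.0553% lower; 9 and 7 genes), with 1227 genes at an unadjusted p under 0.05. Of the members 2 had an unadjusted p under 0.05, and DESeq2 called none. A replicate block, which joins the RNA and footprint library of 1 genotype and number, called Slc6a6 and gave 48 genes higher and 86 lower. The labels do not say whether such libraries come from the same heart. Slc6a6 had 0.514 footprint CPM per RNA CPM in cKO and 0.372 in Ctrl, a log2 difference of 0.45 (SE 0.11, interval 0.22 to 0.69, unadjusted p = 0.000898, adjusted p = 0.148). Slc7a5 had 1.48 in cKO and 1.02 in Ctrl, a log2 difference of 0.51 (SE 0.17, interval 0.15 to 0.87, unadjusted p = 0.00785, adjusted p = 0.334). The other 8 members lay between −0.21 and 0.07, each with an interval that includes 0. Slc38a1 (0.03, interval −0.21 to 0.27) and Slc7a1 (−0.11, interval −0.32 to 0.11), which changed in RNA, are among them.

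**Figure D2:**
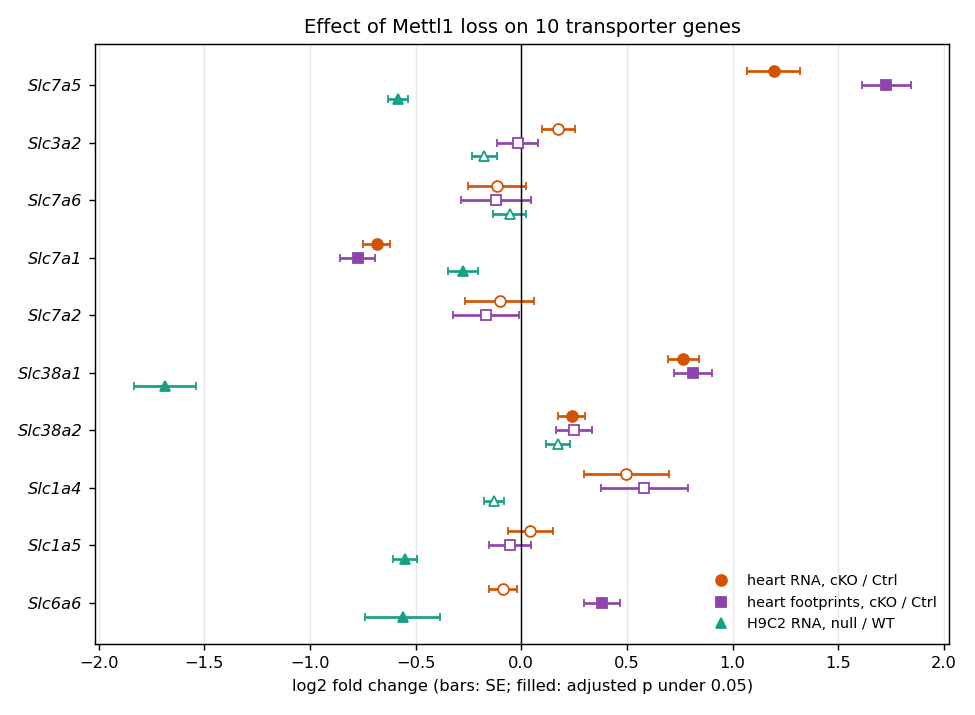
Log2 fold change of each transporter gene with its standard error (bars) in heart RNA (orange circles), heart footprints (purple squares) and H9C2 RNA (green triangles); filled symbols have an adjusted p under 0.05. Slc7a5 and Slc38a1 lie to the right of 0 in heart and to the left in H9C2, while Slc7a1 lies to the left in all 3; Slc7a2 was not tested in H9C2.

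Levels of different genes were compared only in footprints per kilobase of reading frame per M footprints, since transcript lengths were not used here. Slc38a2 held the highest density, at 494.6 ± 1.403 in cKO and 415.7 ± 48.8 in Ctrl hearts (SD, n = 2 each), which was 66.1 and 66.8% of the summed density of the 10 genes in cKO libraries and 65.4 and 63.4% in Ctrl libraries. Slc3a2 came next, at 73.6 ± 0.626 in cKO and 74.5 ± 11.3 in Ctrl. In Ctrl hearts the order of means then ran Slc7a1 (52.0), Slc6a6 (46.4), Slc38a1 (21.6), Slc1a5 (18.1), Slc7a5 (5.64), Slc7a6 (4.90), Slc7a2 (3.99) and Slc1a4 (2.28), and no neighbours overlapped in their 2 libraries. In cKO hearts Slc6a6 had rank 3 at 60.4 ± 4.52, Slc38a1 rank 4 at 37.9 ± 0.379, Slc7a1 rank 5 at 30.4 ± 0.697, Slc7a5 rank 6 at 18.7 ± 0.562 and Slc1a5 rank 7 at 17.4 ± 0.433. Slc7a6, Slc7a2 and Slc1a4 kept the last places, and only Slc7a2 and Slc1a4 overlapped. The density of Slc7a5 was 26.1 and 24.7% of that of its heavy chain Slc3a2 in cKO libraries and 6.70 and 8.64% in Ctrl libraries. The density of Slc7a6 was 6.05 and 6.26% of that of Slc3a2 in cKO and 5.29 and 8.18% in Ctrl. Slc7a1 made up 88.8 and 90.3% of the density of the pair Slc7a1 and Slc7a2 in cKO and 93.1 and 92.7% in Ctrl.

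**Figure D3:**
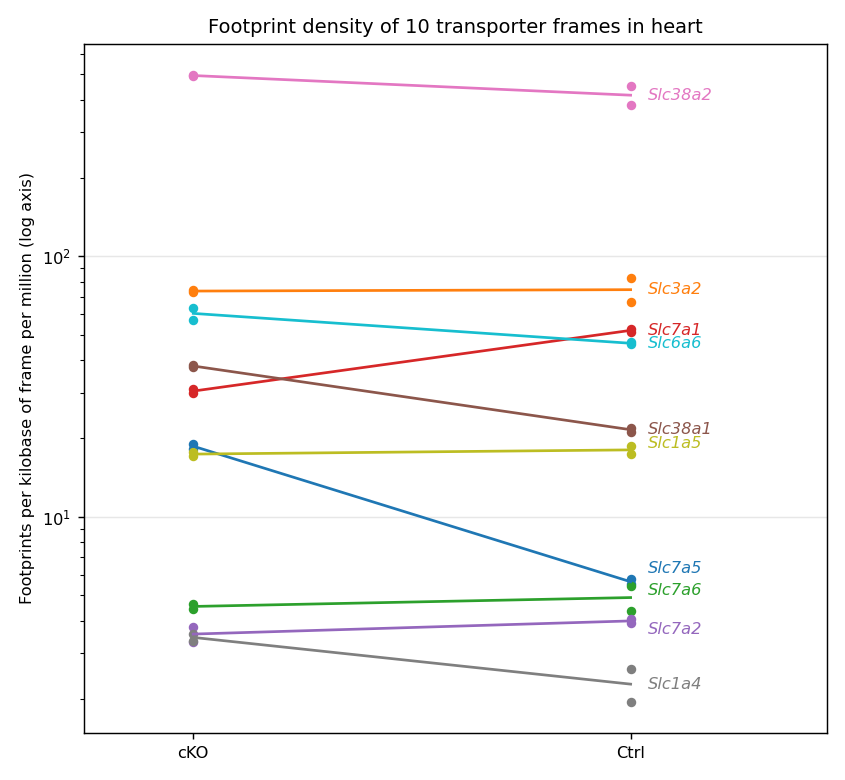
Footprint density of the main reading frame of each of the 10 genes, in footprints per kilobase per M footprints on a log axis, in cKO (left) and Ctrl (right) hearts; points are libraries and lines join the means of 2. The line of Slc7a5 is the steepest, while that of Slc7a1 crosses those of Slc6a6 and Slc38a1.

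The footprint table lists frames upstream of the main one for 3 of the members: 1 of 23 codons for Slc38a2, 1 of 13 codons for Slc1a5, and 4 of 10 to 64 codons for Slc38a1. In a fit over all frames, in which 12.8% of 17188 frames were called (6.92% higher and 5.88% lower; 1190 and 1010, against 1672 and 681 with library totals, 642 and 473 without the cKO 1 library and 759 and 524 without cKO 2), the upstream frame of Slc38a2 was higher in cKO. It had 366 and 350 footprints in cKO libraries and 127 and 173 in Ctrl libraries, or 9.04 and 9.94 against 5.23 and 5.22 CPM (0.86, SE 0.16, adjusted p = 0.00223). The main frame of Slc38a2, of 504 codons, had a log2 fold change of 0.24 in the same fit (SE 0.09, adjusted p = 0.0795). The share of the gene's footprints on the upstream frame was 1.21 and 1.33% in cKO (exact 95% intervals 1.09 to 1.34% and 1.20 to 1.48%) and 0.770 and 0.903% in Ctrl (0.642 to 0.915% and 0.774 to 1.047%), so the intervals of the genotypes did not overlap. These intervals cover counting error only, and the difference in share between the genotypes was not tested.

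On Slc1a5 the 13-codon frame held a larger part of the gene's footprints, 14.8 and 15.4% in cKO (intervals 13.0 to 16.8% and 13.3 to 17.6%) and 10.5 and 12.0% in Ctrl (8.497 to 12.8% and 10.1 to 14.1%). It had 205 and 179 footprints in cKO and 88 and 130 in Ctrl, and its own log2 fold change was not called (0.42, SE 0.19, adjusted p = 0.186). The main frame of 555 codons was at −0.06 in this fit (SE 0.10). The cKO shares lay above the Ctrl shares, with intervals that overlap in part. On Slc38a1 the shares ran the other way, at 6.35 and 5.43% on the 4 upstream frames together in cKO and 7.24 and 7.12% in Ctrl, with overlapping intervals, and none of its 3 upstream frames that passed the count filter was called. The other 7 members list the main frame alone.

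**Figure D4:**
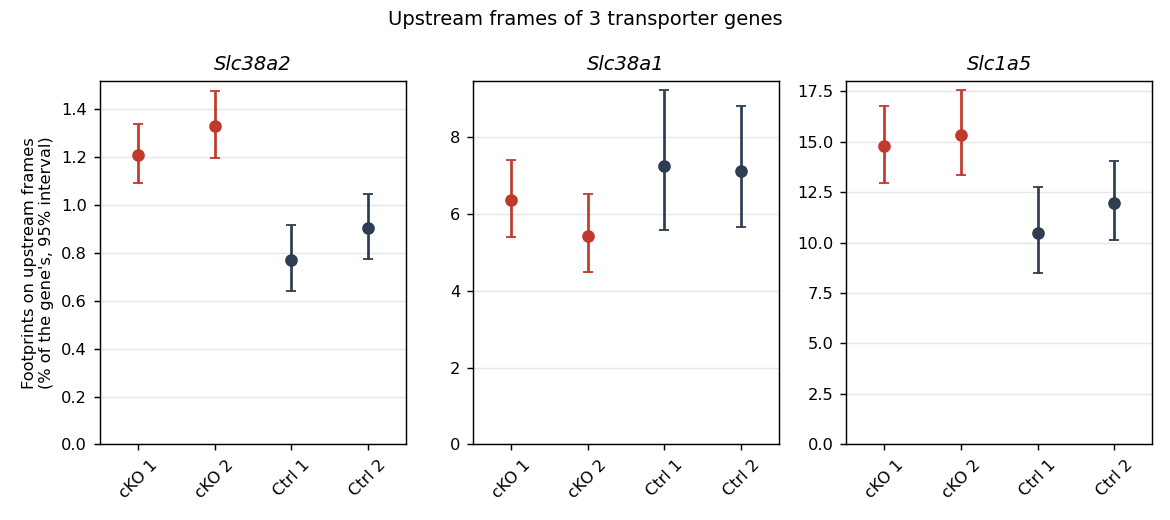
Share of a gene's footprints that lie on frames upstream of the main one (percent, exact 95% binomial intervals as bars) in each cKO (red) and Ctrl (dark) heart library. The cKO intervals lie above the Ctrl intervals for Slc38a2, overlap them in part for Slc1a5 and overlap them for Slc38a1.

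In Mettl1-null H9C2 cells RNA of the glutamine carriers Slc38a1 and Slc1a5, of the leucine exchanger Slc7a5, of the arginine carrier Slc7a1 and of the taurine carrier Slc6a6 fell. Of the 9 members that passed the count filter, these 5 were called lower and none was called higher. Over all 14801 genes, 25.1% were called (13.6% higher and 11.5% lower). The libraries of null and WT cells did not overlap for 7 of the 9 members, 6 lower and 1 higher, beside 42.6% of all genes (19.8% lower and 22.8% higher). The median log2 fold change was −0.28 over these 9 members and 0 over all genes. Myoblast markers, 6 genes with Myf5 at 0, summed to 276.9 to 294.8 CPM in null and 150.6 to 176.0 CPM in WT cells (2 called higher and 1 lower), and of the 4 fibroblast markers that passed the filter 3 were called lower (sums of 7531 to 7964 CPM in null and 9255 to 9706 CPM in WT). Col1a1 made up nearly all of the fibroblast sums (means of 7762 CPM in null and 9477 CPM in WT). Lum (0.120 against 1.42 CPM) and Dcn (0.0387 against 0.390 CPM), also called lower, were near the floor. Markers of pericytes and smooth muscle had 2 called higher and 3 lower of 6 (6855 to 7130 CPM in null and 6256 to 7454 CPM in WT), and epicardial markers 2 higher of 3 (23.5 to 23.9 CPM in null and 16.3 to 17.6 CPM in WT). The part of these markers in the H9C2 results was not tested.

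Slc38a1 fell the most, to 3.84, 3.13 and 3.17 CPM in null cells, against 12.7, 9.36 and 10.7 CPM in WT cells (−1.69, SE 0.15, adjusted p = 9.6e-05). Slc7a5 had 241.4, 224.2 and 225.9 CPM in null and 342, 345 and 349 CPM in WT (−0.58, SE 0.05, adjusted p = 7.5e-05). Its heavy chain Slc3a2 had 352, 355 and 357 CPM in null and 393, 434 and 375 CPM in WT (−0.18, SE 0.06, adjusted p = 0.0627), and passed without the WT 3 library (0.0152) and with DESeq2 (0.0342). For these 3 genes every null library lay under every WT library, though the main test did not call the last. Slc1a5, the glutamine exchanger on which many dividing cells draw, had 70.3, 63.6 and 65.3 CPM in null and 99.4, 98.1 and 94.3 CPM in WT (−0.55, SE 0.06, adjusted p = 2.2e-04). Slc7a1 had 214.7, 193.4 and 191.2 CPM in null and 236.9, 226.1 and 262.7 CPM in WT (−0.28, SE 0.07, adjusted p = 0.022), the one gene of the set called lower in both heart and H9C2. Its call in H9C2 was lost without the null 2 (adjusted p = 0.093), null 3 (0.101) or WT 1 (0.0626) library.

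Slc6a6 passed narrowly in H9C2 and its groups overlapped, at 71.5, 64.8 and 61.7 CPM in null and 104.4, 67.8 and 120.1 CPM in WT (−0.56, SE 0.18, adjusted p = 0.0497). The WT 2 library stood with the null libraries. The call was lost without the null 1 (adjusted p = 0.1), null 2 (0.142), null 3 (0.157), WT 1 (0.153) or WT 3 (0.0868) library, with library totals (0.0713) and with 1 count as the sole filter (0.0808). Slc38a2 was the sole member higher in every null library, at 1127, 1098 and 1100.0 CPM against 971, 919 and 1057 CPM in WT (0.17, SE 0.06, adjusted p = 0.0561). It passed without the WT 3 library (0.22, adjusted p = 0.0064), with DESeq2 (0.0288) and with library totals (0.0361). Slc1a4 had 203.0, 200.5 and 197.8 CPM in null and 213.1, 218.1 and 226.3 CPM in WT (−0.13, SE 0.05, adjusted p = 0.0737, and 0.0318 with DESeq2), and Slc7a6 overlapped at 53.3, 54.3 and 53.8 CPM against 60.3, 49.1 and 58.3 CPM (−0.06, interval −0.24 to 0.13). Slc7a2 was at or near 0, with 6, 0 and 4 counts in null and 0, 0 and 0 in WT libraries, and was not tested.

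**Figure D5:**
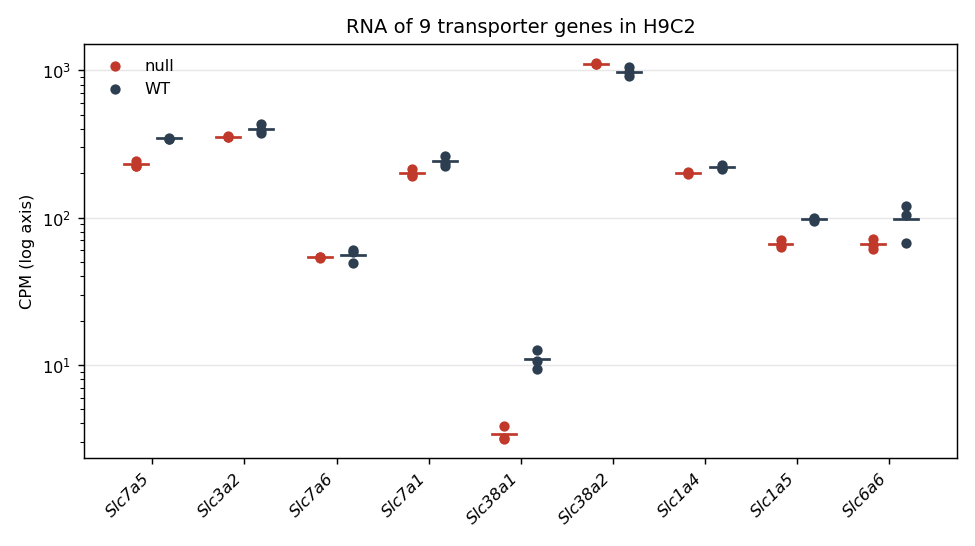
RNA level of 9 transporter genes in Mettl1-null (red) and WT (dark) H9C2 cells, in CPM on a log axis; points are libraries and bars are means of 3. Slc7a5, Slc38a1 and Slc1a5 lie lower in null cells with no overlap, and 1 WT library of Slc6a6 lies among the null libraries.

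The effects in heart and in H9C2 were compared directly, in 1 model over 10356 genes that pass the filter and carry the same symbol in mouse and rat, in which 19.6% of genes differed (9.91% with the higher effect in heart and 9.70% with the lower; 1026 and 1005 genes). Without the cKO 1 library these counts were 610 and 642, without Ctrl 1 657 and 663, and without Ctrl 2 659 and 700. Of the 9 members in that model, 6 differed. The effect in heart minus that in H9C2 was 2.46 on the log2 scale for Slc38a1 (SE 0.18, adjusted p = 4.2e-06) and 1.79 for Slc7a5 (SE 0.11, adjusted p = 9.5e-07), and these are the 2 genes called in opposite directions. It was 0.60 for Slc1a5 (SE 0.12, adjusted p = 0.00502), which was called in H9C2 alone, 0.63 for Slc1a4 (SE 0.15, adjusted p = 0.0135) and 0.36 for Slc3a2 (SE 0.10, adjusted p = 0.0335), neither of them called in heart or in H9C2. For Slc7a1, lower in both, it was −0.40 (SE 0.11, adjusted p = 0.0217), the larger fall being in heart. Slc6a6 (0.48, adjusted p = 0.21), Slc38a2 (0.07) and Slc7a6 (−0.06) were not called in this test. Leaving out 1 library ended the call of Slc3a2 in 7 of 10 cases, all but Ctrl 1, WT 2 and WT 3 (adjusted p 0.0555 to 0.148). It ended that of Slc7a1 without cKO 1, cKO 2, Ctrl 1 or WT 1 (0.0531 to 0.099) and that of Slc1a4 without cKO 1 (0.172) or Ctrl 2 (0.0833), and Slc6a6 passed without WT 2 (0.68, adjusted p = 0.00105). The systems differ in species, cell type, culture against tissue and annotation besides the way Mettl1 was lost. All null samples also come from 1 line, whose own traits add to any effect of Mettl1 loss. These cannot be told apart.

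Other amino acid transporters, a list of 44 genes, gave 4 called higher and 3 lower of 23 tested in heart RNA (8.16% and 6.26% over all genes), 2 higher and 3 lower of 25 in footprints (9.11% and 7.33%) and 10 higher and 2 lower of 23 in H9C2 (13.6% and 11.5%), with median log2 fold changes of 0.00, −0.08 and 0.29 beside 0 over all genes. In heart, Slc38a4, a further sodium-coupled carrier of small neutral amino acids, was at 26.4 and 30.2 CPM of RNA in cKO and 16.9 and 16.7 CPM in Ctrl (0.75, SE 0.11, adjusted p = 1.8e-04), and its footprints rose too (0.59, SE 0.09, adjusted p = 3.0e-04). Slc38a3, which carries glutamine and histidine, was at 55.7 and 59.9 CPM in cKO and 79.9 and 76.8 CPM in Ctrl (−0.44, SE 0.07, adjusted p = 5.8e-04; footprints −0.36, adjusted p = 0.00799). The glutamine carriers of this family thus did not move together. Slc36a2, a proton-coupled carrier of glycine and proline, fell in heart RNA (−0.72, SE 0.10, adjusted p = 1.5e-04) and footprints (−0.71, SE 0.13), and Slc16a10, a carrier of aromatic amino acids, fell as well (−0.40, SE 0.10, adjusted p = 0.0135; footprints −0.44, SE 0.12). Slc1a2, a glutamate carrier best known from glia, had 60 and 60 counts in cKO and 8 and 18 in Ctrl RNA libraries (2.13, SE 0.35, adjusted p = 6.2e-04). Slc43a2, a further carrier of large neutral amino acids, rose in RNA (0.36, SE 0.10, adjusted p = 0.0219), while its footprints (0.10, adjusted p = 0.614) and its translational efficiency (−0.27, SE 0.15, adjusted p = 0.609) were not called. Slc7a4 had 29 and 29 counts in cKO and 8 and 13 in Ctrl RNA libraries (1.39, SE 0.39, adjusted p = 0.027). Its footprints, on 77 to 154 counts a library, were not called (0.38, SE 0.22, adjusted p = 0.283).

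Among the other transporters called higher in null H9C2 cells were Slc38a9, an arginine sensor for mTORC1 in the lysosome membrane (0.63, SE 0.08, adjusted p = 7.7e-04), Slc36a1, a proton-coupled carrier of small amino acids (0.82, SE 0.13, adjusted p = 0.00181) and Slc66a1, which lets cationic amino acids out of lysosomes (0.52, SE 0.09, adjusted p = 0.0032). Slc38a9 was at 16.5, 15.7 and 17.1 CPM in null and 10.5, 10.3 and 11.01 CPM in WT. Slc36a2 had 75, 73 and 135 counts in null libraries and 0, 0 and 0 in WT libraries, at least 89.7-fold higher when 3 counts over the WT group are taken as the floor. Slc38a3 (2.44, SE 0.49, adjusted p = 0.00732) and Slc7a4 (2.32, SE 0.32, adjusted p = 0.00112) rose too, with 31 to 109 counts a library in null and 11 to 25 in WT. Slc6a8, the creatine carrier, rose by 0.29 (SE 0.05, adjusted p = 0.00238), and Slc7a9 by 0.65 (SE 0.14, adjusted p = 0.00995).

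Genes of the amino acid response, the Atf4 programme that includes transporters and amino acid synthesis enzymes, made up the next list. Of these, 6 were called higher and 3 lower of 32 tested in heart RNA (8.16% and 6.26% over all genes), 9 higher and 2 lower of 31 in footprints (9.11% and 7.33%), and 4 higher and 13 lower of 32 in H9C2 (13.6% and 11.5%), with medians of 0.11, 0.12 and −0.13. Atf4 footprints were at 80.3 and 88.4 CPM in cKO and 52.5 and 52.8 CPM in Ctrl (0.68, SE 0.09, adjusted p = 7.8e-05), and its RNA at 128.3 and 117.2 against 106.6 and 97.8 CPM (0.27, SE 0.07, adjusted p = 0.0176). In H9C2, Atf4 RNA fell to 410.3, 443.7 and 419.6 CPM in null cells, against 547.5, 589.8 and 499.9 CPM in WT (−0.36, SE 0.07, adjusted p = 0.00478). Atf5, its relative, rose in heart RNA (0.65, SE 0.10) and footprints (1.30, SE 0.13) and fell in H9C2 (−0.56, SE 0.06), with adjusted p-values of 3.3e-04, 9.0e-06 and 2.3e-04. Asns, asparagine synthetase, had 4.98 and 4.98 CPM of RNA in cKO and 2.77 and 3.06 CPM in Ctrl (0.77, adjusted p = 0.0245), and fell to 117.3, 113.6 and 108.2 CPM in null cells, against 230.5, 234.7 and 225.8 CPM in WT (−1.03, SE 0.05, adjusted p = 4.7e-06). Atf4, Atf5 and Asns thus had the signs of Slc7a5 in heart and in H9C2. The other members named above as raised by Atf4 did not all share them. Slc7a1 fell in heart RNA (−0.69), footprints (−0.78) and H9C2 (−0.28). Slc38a2 was at 0.24, 0.25 and 0.17 in the same order, and Slc3a2, not called in any, at 0.18, −0.02 and −0.18. Control of the members by Atf4 was not tested. Ddit3, a stress transcription factor, rose in all 3 (1.16 in heart RNA, 1.67 in footprints and 0.57 in H9C2, adjusted p = 0.00196 in the last), and Aldh1l2, a mitochondrial folate enzyme, fell in heart (−0.71 in RNA and −0.70 in footprints). In H9C2 Mthfd2 of one-carbon metabolism (−0.86, SE 0.05) and Psat1 of serine synthesis (−0.79, SE 0.05) fell, and the secreted glycoprotein Stc2 rose (0.72, SE 0.06).

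For amino acid sensing to mTORC1, 6 were called higher and 3 lower of 36 in heart RNA, 5 and 3 of 36 in footprints, and 3 and 6 of 32 in H9C2, beside 14.4%, 16.4% and 25.1% of all genes called in either direction. The medians of the list were 0.115, −0.03 and −0.03. Itfg2, of the complex that holds the GATOR1 inhibitor on lysosomes, rose in heart RNA (1.08, SE 0.12, adjusted p = 1.7e-05) and footprints (1.22, SE 0.10). Lars, the leucyl-tRNA synthetase, rose in both as well (0.59, SE 0.09, and 0.73, SE 0.09), and so did Lamtor5 of the Ragulator anchor (0.44, SE 0.08, and 0.62, SE 0.10). Rragd, a Rag GTPase, rose in heart RNA (0.38, SE 0.06) and was not called in footprints (0.20, SE 0.10). Castor2, of the arginine sensor family, fell in heart RNA (−0.28, SE 0.08, adjusted p = 0.0206) and in footprints (−0.78, SE 0.16, adjusted p = 0.00309). In H9C2 the GATOR2 subunits Sec13 (−0.65, SE 0.06) and Mios (−0.38, SE 0.08) and the GTPase Rheb (−0.48, SE 0.07) fell. Itfg2, higher in heart, fell there too (−0.36, SE 0.09, adjusted p = 0.0182). Slc38a9, described above, and Rragd (0.34, SE 0.09, adjusted p = 0.0199) rose in H9C2.

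Among enzymes of taurine, arginine and glutamine metabolism, 4 were called higher and 3 lower of 22 in heart RNA, 3 and 4 of 22 in footprints, and 4 and 3 of 21 in H9C2, beside the same 14.4%, 16.4% and 25.1% of all genes. The medians were −0.04, −0.10 and 0.09. Glul, glutamine synthetase, was at 845.7 and 861.8 CPM of RNA in cKO and 544.4 and 581.8 CPM in Ctrl (0.60, SE 0.05, adjusted p = 2.1e-06), and rose in H9C2 too (0.55, SE 0.06, adjusted p = 2.8e-04). Got1, the cytosolic aspartate aminotransferase, fell in heart RNA (−0.46, SE 0.05), footprints (−0.81, SE 0.07) and H9C2 (−0.37, SE 0.05). Azin1, which protects the polyamine enzyme Odc1 from breakdown, rose in heart RNA (0.43, SE 0.07) and footprints (0.45, SE 0.11). Got2, the mitochondrial aminotransferase, fell in heart RNA (−0.27, SE 0.05) and was not called in footprints (−0.16, SE 0.08). Oat, ornithine aminotransferase, fell in heart RNA (−0.20, SE 0.06) and footprints (−0.52, SE 0.08). Bcat1, which removes the amino group of leucine, fell in H9C2 (−0.89, SE 0.05, adjusted p = 7.8e-06) while Odc1 rose (0.44, SE 0.04). None of the 4 lists had a member called in translational efficiency.

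The genes nearest to Slc7a5 by Euclidean distance over the log2 fold changes of the 3 comparisons, among 8744 genes at 1 CPM or more in each, were Klhl34 (distance 0.254), Amt of glycine cleavage (0.331), Prune2 (0.363), Sntb1 of the dystrophin complex (0.413) and Upp1, uridine phosphorylase (0.487). Klhl34 stood at 1.39 in heart RNA, 1.73 in footprints and −0.42 in H9C2. Those nearest to Slc7a1 were Abhd18 (0.0693), As3mt, an arsenic methyltransferase (0.0736), Aldh1l2 (0.0894), Tfpi, an inhibitor of blood clotting (0.175), and Ivd of leucine breakdown (0.176). Abhd18 stood at −0.70, −0.71 and −0.29 in the same order. The likeness covers 3 comparisons only and describes no more than these values.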

How the data were processed

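Each sample's group and replicate number are those of its label, and each table column carries the name of 1 sample. The authors deposited whole-number read counts per gene (heart RNA, H9C2) and footprint counts per reading frame (Ribo-seq). The values show no normalization. Per the submitters' processing notes the builds were GRCm38 and Rnor_6.0, and the tools included cutadapt, the aligners STAR, HISAT2, Bowtie and Bowtie2, and featureCounts, StringTie and DESeq2. Their roles, versions and strand settings are not given in the sources used here. Names of H9C2 columns end as annotation files do, so transcript coverage may underlie these counts. The 4 tRNA libraries were not used here.

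Counts were tested with edgeR 4.0.16 in R 4.3.3 (glmQLFit, glmQLFTest; TMM factors; filterByExpr; Benjamini-Hochberg adjustment over all genes, threshold 0.05). Heart RNA, footprints (2 against 2 each) and H9C2 (3 against 3) were fitted separately. For footprints the frame with most footprints stood for its gene, which keeps 98.91% of footprints. Translational efficiency was the genotype by assay term of 1 model. Fits of frames, and of heart against H9C2, were added after the data were seen. An SE is the log2 fold change divided by the square root of F, and 95% intervals, not adjusted, follow from it. Alternatives were relative-log-expression factors, library totals, DESeq2 1.42.0, 2 other count filters, other frames, a replicate block and leaving out each library. The fits were also run on simulated data with 200 changed genes, and the outcome is not given here. Named genes were the 10 members, Mettl1, Wdr4 and, from 4 lists, those with the smallest adjusted p in a comparison (up to 8 other transporters past the threshold, up to 4 of each other list). Members and lists were chosen with earlier results of these data known. Start sites and promoters are from RefSeq (GRCm38.p6), where 5 of the 10 members had a promoter. Gene symbols belong to mouse Ensembl IDs in heart and to rat Ensembl IDs in H9C2. No 2 libraries of a group agreed within counting noise.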

Additional observations from a re-analysis of the deposited data

Results flagged for a closer look

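For 6 transporters the log2 change from Ctrl to cKO in heart RNA differed from that from WT to null in H9C2 RNA. The difference itself was tested (edgeR's quasi-likelihood test, adjusted over 10356 genes, of which 19.6% differed). All null samples come from 1 line, so traits of that line cannot be told apart from Mettl1 loss. The log2 effect in heart minus that in H9C2 was 1.79 for Slc7a5, 2.46 for Slc38a1, 0.60 for Slc1a5, 0.63 for Slc1a4, 0.36 for Slc3a2 and −0.40 for Slc7a1. For Slc7a5, Slc38a1 and Slc1a5 the difference was called with each of the 10 libraries left out in turn and with each other setting run. Slc1a4, Slc3a2 and Slc7a1 lost the call in some of these.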

How the results depend on the processing

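Slc7a5, Slc38a1 and Slc7a1 kept their direction and their call in heart RNA and in footprints under every alternative run, and Slc7a5, Slc38a1 and Slc1a5 did so in H9C2. DESeq2 called 623 genes higher and 457 lower in heart RNA, and 10 higher and 36 lower in translational efficiency. Library totals gave 1769 and 506 in heart RNA and 657 lower in footprints. Members called higher in footprints became 5 (Slc38a2 and Slc1a4 added) with library totals, with 1 count as the sole filter and with the replicate block. In H9C2, 1 member, Slc38a2, was called higher with library totals, with DESeq2 and with at least 50 counts.

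Leaving out 1 library gave 634 to 1069 genes higher and 521 to 933 lower in heart RNA, 667 to 1010 and 481 to 930 in footprints, 1006 to 2110 lower in H9C2, and 2 to 4 higher and 0 to 7 lower in translational efficiency. It gave 610 to 1374 higher and 642 to 1401 lower for heart minus H9C2, and 642 to 1149 and 473 to 1121 for frames. Members called in H9C2 then ran from 0 to 1 higher and from 3 to 5 lower. Lone samples left in a group of the hearts were assumed to vary like the other group. The cause of these changes was not tested.

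Signs turned only for members that were not called. With 1 library left out the heart RNA values ran from −0.252 to 0.035 for Slc7a6, −0.098 to 0.163 for Slc1a5 and −0.186 to 0.017 for Slc6a6. Footprint values ran from −0.166 to 0.145 for Slc3a2, −0.265 to 0.052 for Slc7a6 and −0.109 to 0.001 for Slc1a5, and H9C2 values from −0.139 to 0.002 for Slc7a6. In translational efficiency they ran from −0.174 to 0.041 for Slc7a2, −0.319 to 0.296 for Slc7a6, −0.044 to 0.079 for Slc38a2, −0.209 to 0.401 for Slc1a4 and −0.187 to 0.021 for Slc1a5. The heart minus H9C2 difference ran from −0.192 to 0.097 for Slc7a6 and −0.002 to 0.145 for Slc38a2, and the 10-codon and 49-codon frames of Slc38a1 ran from −0.331 to 0.786 and −0.046 to 0.899. With library totals, footprints were at 0.055 for Slc3a2 and 0.017 for Slc1a5 (0.017 too for its 555-codon frame), and summed over frames Slc1a5 was at 0.009. Slc38a2 in translational efficiency, at −0.003, came to 0 with relative-log-expression factors, with DESeq2 and with the block, 0.015 with factors within each assay, 0.008 and 0.007 with the other filters, and 0.001 with summed frames and with the longest frame.

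Same-numbered libraries of the genotypes deviated together with correlations of 0.009 in heart RNA, −0.04 in footprints and 0.007, 0.048 and −0.053 in H9C2. With 2 heart libraries per genotype and assay, values for unlike numbers mirror those for like numbers (−0.009 in RNA and 0.04 in footprints). The heart correlations thus cannot decide whether libraries of the same number are paired. Not every H9C2 library correlated best with its own number, and the labels do not settle pairing there. The RNA and footprint libraries of the same genotype and number deviated together with correlations of 0.09 (cKO) and 0.166 (Ctrl). The replicate block gave 1455 higher and 1290 lower in heart RNA, 1472 and 1255 in footprints and 1748 and 1399 in H9C2. In translational efficiency, where the block joins the RNA and footprint library of 1 genotype and number, it gave 48 higher and 86 lower and called 1 member, Slc6a6 (0.45, adjusted p = 0.016). Of the members, Slc1a4, Slc7a2 and Slc7a6 had the widest intervals in heart RNA and in footprints, and the part of depth in this was not tested.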

Other observations

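Wdr4, the partner subunit of Mettl1, stood at a log2 fold change of 0.23 in heart RNA (SE 0.15, adjusted p = 0.383), 0.41 in footprints (SE 0.21, adjusted p = 0.208) and −0.02 in H9C2 (SE 0.09, adjusted p = 0.897). Bcat1 stood at 5.55 and 4.91 CPM of RNA in cKO and 3.86 and 3.57 CPM in Ctrl hearts (0.50, SE 0.20, adjusted p = 0.12), beside its fall in H9C2. Slc16a10, measured in heart, had 0 counts in every H9C2 library, and Slc7a9, measured in H9C2, had 2, 0, 0 and 0 counts in the heart RNA libraries.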
